A study of Mus musculus with 9 samples.

Results

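Among the stretches of chromatin retrieved with probes against the long noncoding RNA Gm4665, some were broad without being among the most enriched. These wide regions of moderate fold were the intervals of the Gm4665 list on chromosomes 1 to 19 that measured 1500 bp or more, had a lowest fold enrichment over input under 30 among the 3 replicates, and overlapped no interval of the LacZ control list by 1 bp. Of 37617 Gm4665 intervals on these chromosomes, 1068 were that wide, 418 of those had a lowest fold under 30, and 10 of the 418 overlapped a LacZ interval. The remaining 408 made up 1.08% of the intervals and 2.86% of the bases covered. The members were thus chosen by width, fold and LacZ overlap. The study asked where in male germ cell chromatin Gm4665 meets the regulatory regions of genes. Its 9 samples were 3 captures with Gm4665 probes, 3 captures with LacZ probes (control probes for a gene of bacteria) and 3 inputs, all from germ cells of wild-type mice of the ICR strain, taken from the testis on postnatal day 35. Capture titles read LncRNA-20, while the protocols name probes against Gm4665. No label ties a replicate to an animal, so spread among the 3 may be technical. No expression was measured, so the purity of the germ cells could not be checked against marker genes.

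In captures of this kind, biotinylated probes pair with an RNA in cross-linked, sheared chromatin, and the DNA held near that RNA is recovered and sequenced. Long noncoding RNAs can be tethered at narrow sites or spread along a domain, so the width of a recovered region is a property distinct from its height. A peak caller such as MACS2 reports the fold at the summit of a region against the local background, and its ends where the signal no longer passes a threshold.

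Of the genes whose whole RefSeq promoter window lay inside a wide region, 4 are shown by the 250 bases before the transcript start because they set base composition beside the capture. Capitals mark the CG dinucleotide, which reads the same on both strands. Sequences are from RefSeq on GRCm38.p6, 5′ to 3′ on the strand of the gene, at chr17:34629314-34629563 (plus strand, Prrt1), chr7:143473539-143473788 (plus strand, Slc22a18), chr1:186749359-186749608 (minus strand, Rrp15) and chr2:74682073-74682322 (plus strand, Hoxd11, the more downstream of its listed starts).
Prrt1: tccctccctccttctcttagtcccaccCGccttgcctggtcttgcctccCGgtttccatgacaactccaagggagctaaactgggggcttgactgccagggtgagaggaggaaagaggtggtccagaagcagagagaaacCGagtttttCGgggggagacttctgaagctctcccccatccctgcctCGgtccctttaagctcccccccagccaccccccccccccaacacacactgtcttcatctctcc
Slc22a18: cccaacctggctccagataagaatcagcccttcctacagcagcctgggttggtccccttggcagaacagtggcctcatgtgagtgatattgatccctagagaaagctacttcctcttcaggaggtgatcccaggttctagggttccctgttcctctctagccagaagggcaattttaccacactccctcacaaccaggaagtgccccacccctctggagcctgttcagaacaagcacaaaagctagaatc
Rrp15: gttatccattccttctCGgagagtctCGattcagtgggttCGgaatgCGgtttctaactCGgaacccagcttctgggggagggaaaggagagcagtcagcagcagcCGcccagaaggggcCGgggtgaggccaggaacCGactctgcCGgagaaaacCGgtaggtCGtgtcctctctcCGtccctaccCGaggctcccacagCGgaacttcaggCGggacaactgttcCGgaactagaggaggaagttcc
Hoxd11: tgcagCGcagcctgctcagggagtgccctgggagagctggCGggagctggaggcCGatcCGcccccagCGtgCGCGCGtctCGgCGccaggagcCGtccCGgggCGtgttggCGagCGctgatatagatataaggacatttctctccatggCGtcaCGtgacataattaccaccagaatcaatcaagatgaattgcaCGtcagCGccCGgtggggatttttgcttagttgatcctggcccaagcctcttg
The Hoxd11 window held 20 CG dinucleotides and the Rrp15 window 16, against a median of 6 over 31396 autosomal promoter windows of this length. The Prrt1 window held 5, and that of Slc22a18 held 0, as did 7.64% of all windows. In all, 17 promoter windows of 14 genes lay wholly inside 12 of the wide regions, with a median of 5 CG and a range of 0 to 20. Some windows of the lncRNA gene A430105J06Rik overlap each other and that of Rrp15, so the 17 count some bases more than once. A GC box (GGGCGG or CCGCCC) was found in 4 of the 17 windows, against 33.0% of all windows, and a CCAAT box (CCAAT or ATTGG) in 4 of 17, against 33.7%. The letters TATAAA or TTTATA were found in 1 of 17, against 12.4%, and TGACG or CGTCA, the short form of the cAMP response element, in 4 of 17, against 17.9%. The promoters inside these regions were thus of mixed composition, from CG-rich to free of CG.

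The values that chose the regions are given as a description. Where the list gave a replicate several folds in a region, the highest was kept, here and for the regions named below. Widths ran from 1500 to 3851 bp with a median of 1657.5 bp. The median fold was 33.1 in Gm4665 replicate 1, 23.6 in replicate 2 and 28.4 in replicate 3 (mean 28.4 ± 4.72, SD, n = 3). Moderate is relative to other wide regions. The 35558 narrower regions under the same fold ceiling had medians of 11.0, 8.16 and 9.91 (mean 9.68 ± 1.42, SD, n = 3), and the 638 wide regions with a lowest fold of 30 or more had 54.9, 42.9 and 49.8 (mean 49.2 ± 6.05, SD, n = 3). In 125 of the 408 all 3 replicates were under 30, in 94 a single replicate reached 30, and in 189 a pair of replicates did. Replicate 2 was the lowest in 286 regions (70.1%), replicate 3 in 97 and replicate 1 in 25, beside 62.5% lowest in replicate 2 among narrower regions. Without replicate 2, 263 regions would meet the rule. The SD between replicates had a median of 24.0% of the mean fold, beside 22.2% in narrower regions and 16.2% in wide regions of higher fold.

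**Figure D1:**
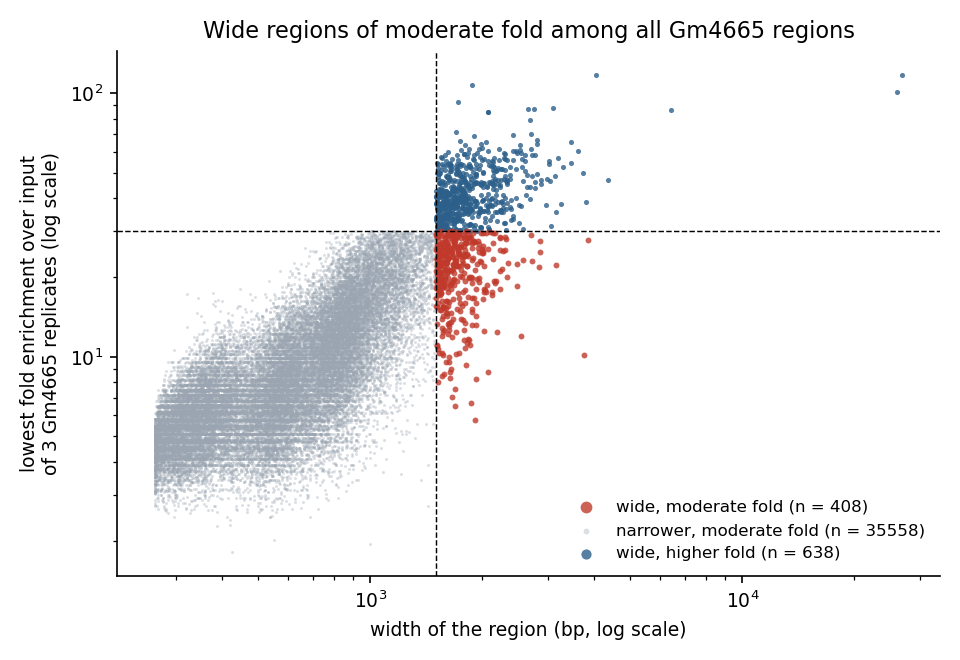
Each point is a Gm4665 region on chromosomes 1 to 19 without LacZ overlap, with its width in bp (horizontal, log scale) against the lowest of its 3 replicate folds over input (vertical, log scale); dashed lines mark 1500 bp and a fold of 30, and narrower regions of higher fold are not drawn. Wide regions of moderate fold (red, n = 408) fill the corner right of 1500 bp and below a fold of 30, where they continue the cloud of narrower regions, and most lie close to the 1500 bp line, with a median width of 1657.5 bp.

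The thresholds cut through a continuous distribution. The 3 narrowest members all measured 1500 bp and lay on chromosomes 11 and 6, and the widest regions just short of the width threshold measured 1498, 1497 and 1497 bp on chromosomes 12, 15 and 16. At the fold threshold the 3 highest members had a lowest fold of 29.9 (chromosomes 11, 2 and 5), and the nearest regions above had 30.01, 30.02 and 30.02 (chromosomes 3, 11 and 11).

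The 5 widest regions lay away from gene ends. The widest ran from 28140383 to 28144233 on chromosome 2 (mm10), between genes, 7928 bp from the lncRNA gene F730016J06Rik and 50785 bp from Olfm1, which encodes the secreted brain glycoprotein olfactomedin. Its folds were 59.6, 27.7 and 39.1 in replicates 1, 2 and 3. The next, 3762 bp from 90445383 on chromosome 1, lay inside the lncRNA gene Gm34992 with folds of 13.1, 11.8 and 10.2. By these highest folds the 2 neighbours in width did not overlap, and the replicates of the weaker one lay closer together. At the weaker one, replicate 3 was also listed with a fold of 4.87, so this closeness depends on the fold kept. The next in width, 3155 bp from 77971145 on chromosome 2, had folds of 27.6, 22.4 and 30.6 and was 26366 bp from Cwc22, a splicing factor gene. Its replicate 2 was also listed with a fold of 2.61. The fourth, 2863 bp from 83126700 on chromosome 6, had folds of 25.01, 29.3 and 48.4 and lay 3012 bp from Ino80b, which encodes a subunit of the INO80 chromatin remodeller. The fifth, 2849 bp inside the scavenger receptor gene Colec12 on chromosome 18, had folds of 65.5, 51.4 and 27.5. By these highest folds it entered the set through replicate 3 alone, though replicate 2 was also listed there with a fold of 4.08.

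By mean fold the regions spanned 6.59 to 49.0. The highest lay inside Wnt4, a signalling ligand gene of urogenital development, from 137283041 to 137285744 on chromosome 4, with folds of 61.0, 57.1 and 29.0 (mean 49.0 ± 17.5, SD, n = 3). Colec12 followed at 48.1 ± 19.2, then an intergenic region from 78036141 on chromosome 12 at 47.9 ± 16.4 (SD, n = 3 each). By the highest fold listed per replicate, each of these 3 had 1 replicate under 30 and a pair of replicates over 50. At the low end, a region of 1912 bp inside Nbea, which encodes the membrane-traffic protein neurobeachin, had folds of 7.01, 5.78 and 6.99 (mean 6.59 ± 0.704, SD, n = 3). A region 6272 bp from Sppl2c, a protease gene known from spermatids, had 8.65, 7.53 and 8.17. Replicates differed most at Chit1, the chitotriosidase gene, with folds of 27.6, 7.05 and 24.6, a ratio of 3.92 between highest and lowest. The ratio was 3.67 inside Slc38a9, a lysosomal amino acid transporter gene, and 3.16 inside Rapgef2, a Rap exchange factor gene, against a median of 1.60 over all 408.

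Position relative to genes was not used in choosing the regions. Their midpoints lay within 2 kb of an end of a protein-coding gene in 50 of 408 cases (12.3%, 95% Wilson interval 9.42% to 15.8%). For narrower regions of the same fold ceiling the share was 6.54% (2325 of 35558, 6.29% to 6.80%), and for wide regions of higher fold it was 5.17% (33 of 638, 3.71% to 7.17%). The share was thus 5.72 percentage points higher than in narrower regions (95% Newcombe interval 2.87 to 9.26) and 7.08 points higher than in wide regions of higher fold (3.61 to 10.9). With genes of every kind, the shares were 18.1% (74 regions), 13.02% and 12.5%. These intervals cover counting error only and compare regions of 1 list, not conditions. Of the 74, the nearest gene was protein-coding in 45, a lncRNA gene in 16 and a pseudogene, transcribed or not, in 9.

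Both sides of genes contributed. Among the 16457 protein-coding genes whose strand the promoter table gives, the 5′ end had a midpoint of 20 wide regions within 2 kb (4.90%, 3.20% to 7.45%), beside 2.76% of narrower regions. The 3′ end had 25 (6.13%, 4.18% to 8.89%), beside 2.84%. A further 208 regions (51.0%) had their midpoint in the rest of a gene, beside 44.3% of narrower and 50.2% of wide regions of higher fold. Intergenic midpoints made up 30.9%, beside 42.7% and 37.3%. The median distance to the nearest gene end was 9480.5 bp, beside 14068 bp for narrower and 12089.5 bp for wide regions of higher fold.

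The share at protein-coding gene ends was higher than in narrower regions in each of 6 ranges of mean fold, with overlapping intervals from 20 to under 30 and from 35. Regions with a mean fold under 15 had 17.9% at such ends (5 of 28), beside 6.62% of narrower regions in that range. From 30 to under 35 the share was 13.3% (14 of 105, 8.11% to 21.1%), beside 5.36% (3.92% to 7.30%). From 35 to under 50 it was 9.68% (9 of 93, 5.18% to 17.4%), beside 4.69% of narrower regions (2.49% to 8.67%) and 4.60% of wide regions of higher fold (2.81% to 7.45%), where the intervals overlap. When narrower regions were weighted to the mean folds of the wide ones, their share was 6.03%.

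**Figure D2:**
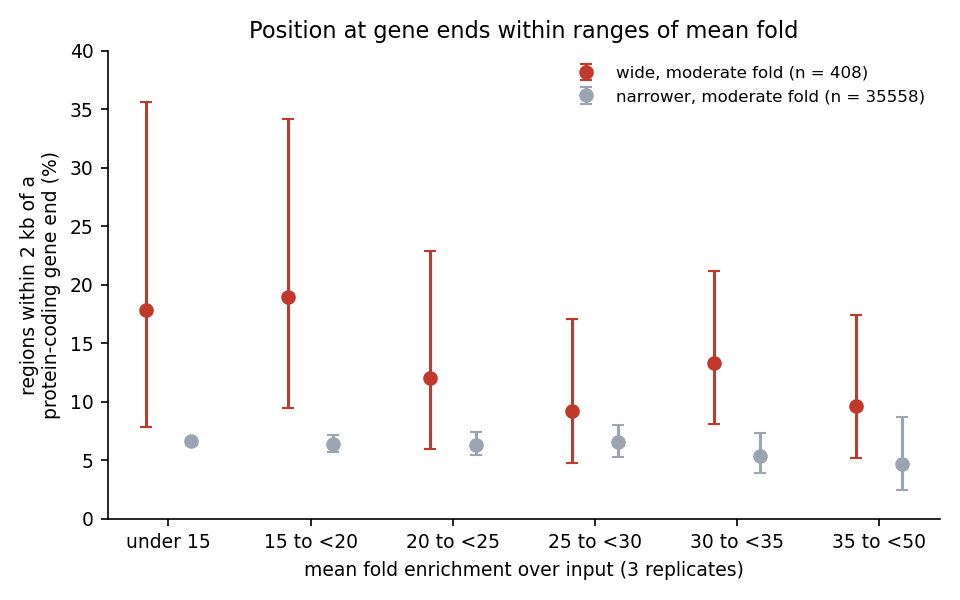
Points give the percentage of regions with a midpoint within 2 kb of a protein-coding gene end in 6 ranges of mean fold over input, with 95% Wilson intervals, for wide (red) and narrower (grey) Gm4665 regions of moderate fold. The red point lies above the grey one in each range, from 17.9% against 6.62% under a fold of 15 to 9.68% against 4.69% from 35 to under 50, while single intervals are wide.

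The LacZ control list, cut by the same rule with the lists exchanged, held 458 wide regions of moderate fold. Of these, 9.39% lay at protein-coding gene ends (43 regions, 7.05% to 12.4%), beside 8.29% of narrower LacZ regions, a difference of 1.102 points (95% Newcombe interval -1.32 to 4.18). The gap between wide and narrower regions was thus 5.72 points with Gm4665 probes and 1.102 points with LacZ probes, and the 2 gaps were not tested against each other. The same cut did not pick like classes in the 2 lists. The SD between replicates had a median of 56.4% of the mean fold in wide LacZ regions, against 24.0% in wide Gm4665 regions. Narrower LacZ regions had a median width of 829 bp, against 568 bp for narrower Gm4665 regions. Median folds of the wide LacZ regions were 53.3, 18.2 and 26.6 in LacZ replicates 1, 2 and 3.

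Folds at gene ends and elsewhere are given as a description, since the ceiling on the lowest fold capped both before they were set side by side. Within the wide Gm4665 regions, the median fold at gene ends divided by that elsewhere was 0.997, 0.984 and 0.965 in replicates 1, 2 and 3 (mean 0.982 ± 0.0164, SD, n = 3). In the wide LacZ regions it was 0.928, 1.101 and 1.06 (mean 1.03 ± 0.0899, SD, n = 3). The Gm4665 values lie within the LacZ range, and no test is drawn from these ratios.

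By gene, 92 of 46714 autosomal genes (0.197%) had such a region within 2 kb of an end, 61 of them protein-coding (0.297% of 20560). The widest region at a protein-coding gene end lay at Aqp7, which encodes an aquaglyceroporin of spermatids and sperm, from 41033465 to 41035998 on chromosome 4. Its folds were 23.9, 15.98 and 11.97 (mean 17.3 ± 6.08, SD, n = 3), all under 30. At Acer2, a ceramidase gene on the same chromosome, a region of 2318 bp from 86932332 had folds of 34.4, 43.7 and 28.1. Aqp7 and Acer2 did not overlap in fold, and at both replicate 3 was the lowest.

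A region from 34627632 to 34629899 on chromosome 17 covered the promoter of Prrt1, which encodes a membrane protein of synapses, and both listed promoter windows of its neighbour Ppt2, a lysosomal thioesterase gene. Its folds were 43.5, 25.2 and 32.8 (mean 33.8 ± 9.16, SD, n = 3). At Lig3, the DNA ligase III gene of base excision repair, a region of 2234 bp centred 113 bp from the gene end on chromosome 11 also reached Rffl, with folds of 31.1, 24.5 and 18.1. Its replicate 3 was also listed with a fold of 4.49. The Slc22a18 region, 2135 bp from 143472313 on chromosome 7 in a domain of imprinted genes, had folds of 33.1, 27.0 and 33.3 (mean 31.1 ± 3.60, SD, n = 3). Of these 3, Slc22a18 had the closest replicates, and its promoter, printed above, was the one without CG.

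Next in width, at Wnt6, a Wnt ligand gene, 2133 bp from 74752277 on chromosome 1 had folds of 42.3, 23.6 and 31.7. At Tlx3, a homeobox gene of neuron specification, 2017 bp from 33201630 on chromosome 11 had folds of 18.4, 18.2 and 35.0, with replicate 3 standing apart. The region at Dctn4, a dynactin subunit gene on chromosome 18, had folds of 33.0, 17.97 and 32.1, with replicate 2 apart by these highest folds. Replicate 3 was also listed there with a fold of 3.80. Ptpdc1, a phosphatase gene on chromosome 13, had folds of 34.1, 28.9 and 39.7. Rrp15, a ribosome biogenesis gene on chromosome 1 whose promoter is printed above, had 27.4, 11.3 and 17.6, and its region also covered promoter windows of the lncRNA gene A430105J06Rik. Cactin, a gene linked to splicing, on chromosome 10, had 14.2, 11.6 and 23.2.

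**Figure D3:**
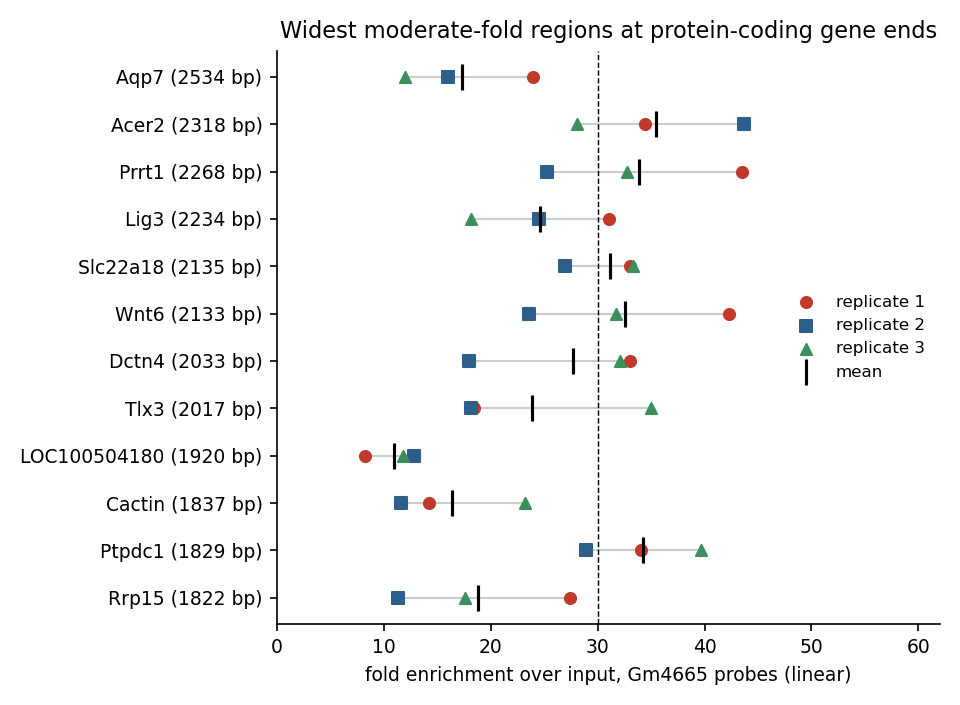
Folds over input of the 3 Gm4665 replicates (symbols) and their mean (black bar) are shown on a linear axis for the 12 widest moderate-fold regions at protein-coding gene ends, ordered by width from the top; grey lines span the replicates and the dashed line marks a fold of 30. The lowest mean, 11.0, is at LOC100504180 and the highest, 35.4, at Acer2, and every region has at least 1 replicate left of the dashed line.

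Other regions that held a whole promoter window are named here for that position, after their values were seen. Sars, the cytosolic seryl-tRNA synthetase gene on chromosome 3, had folds of 49.1, 47.0 and 22.1, with replicate 3 apart. Prox2, a homeobox gene on chromosome 12, had 35.1, 23.3 and 23.3. Esp1, a male pheromone peptide gene on chromosome 17, had 17.7, 13.3 and 22.6, and Fam205a2 on chromosome 4 had 24.1, 15.5 and 20.6, both under 30 in all 3 replicates. The lncRNA genes Gm31399 (33.5, 30.6 and 21.2), 1810019D21Rik (17.0, 14.3 and 15.9) and Gm36736 (60.01, 25.5 and 54.3) completed the 12 regions together with Prrt1, Slc22a18, Rrp15, Duxf3 and Hoxd11. Their mean folds ran from 9.24 at Duxf3 to 46.6 at Gm36736, nearly the full span of the set.

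Summit coverage and fold parted at the Dux cluster on chromosome 10, 2 of whose genes the rule named. Duxf3, from 58229505 to 58233089, encodes a double homeobox transcription factor known for switching on genes of the early embryo, and its family lies in near-identical repeats, so reads there may be shared between copies. A region of 1641 bp from 58232410 held its promoter window, with folds of 8.77, 8.32 and 10.6 (mean 9.24 ± 1.22, SD, n = 3) and a summit pileup of 303. A second, 1920 bp from 58224556 at the adjoining gene LOC100504180, had folds of 8.27, 12.8 and 11.8 (mean 11.0 ± 2.37, SD, n = 3) and a pileup of 459, the highest of the 408. These are the highest folds listed, and its replicates 2 and 3 were also listed with 2.65 and 2.57. The median pileup was 111 at a median mean fold of 29.6, so these regions combined very high coverage with low fold. Their summits lay 7888 bp apart. Within 10 kb of Duxf3 there was 1 more Gm4665 region, 1156 bp wide with a mean fold of 19.9 ± 2.44 (SD, n = 3), and the LacZ list held 0. The rule excluded LacZ overlap, and over the 408 the distance to the nearest LacZ region had a lower quartile of 30052 bp. Nothing is therefore read from this 0.

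The deposited columns allow the local background behind each fold to be estimated. The headers name no replicate for the pileup, but replicate 1 fold divided by pileup plus 1 lay within 0.0005, as a fraction, of its highest value in 46.7% of Gm4665 regions, against 0.00266% for replicates 2 and 3. Local background is given here as that highest ratio divided by the ratio of the region, so 1 is the floor. It was 18.97 and 11.8 at the Dux regions and 4.93 at the region of 3155 bp on chromosome 2 (pileup 399). These 3 stood apart, since the next value was 2.38, at Cactin and inside the gene Gm31432. The median was 1.08, beside 1.01 in narrower regions and 1.02 in wide regions of higher fold, and 30.4% were at 1.2 or more, beside 25.7% and 23.4%. The replicate 1 fold is the divisor in this estimate and also entered the rule, so these differences are descriptions.

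**Figure D4:**
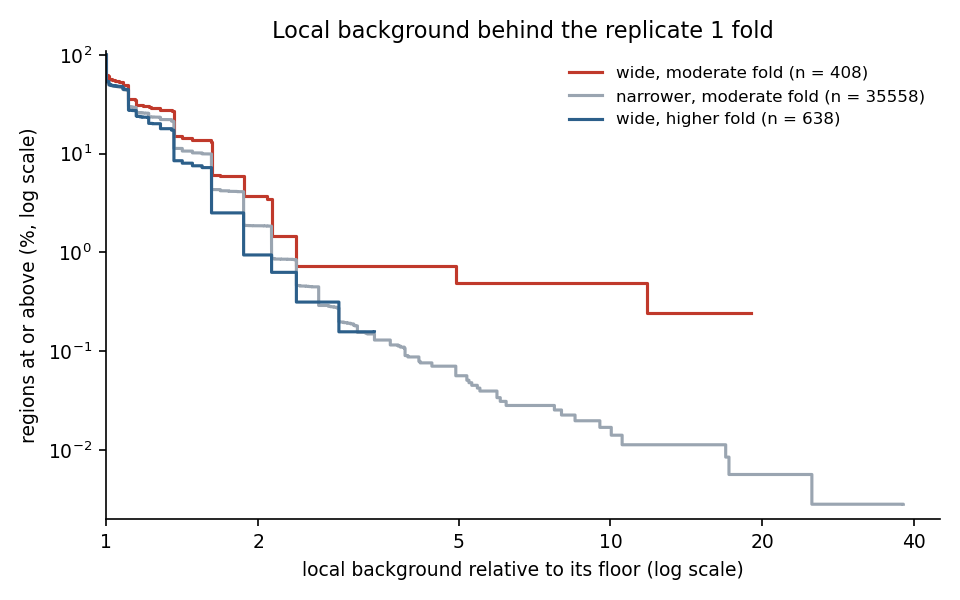
Curves give the percentage of regions (vertical, log scale) whose local background, relative to its floor of 1 (horizontal, log scale), is at or above each value, for wide regions of moderate fold, narrower regions and wide regions of higher fold. At 1.2 the red curve of the 408 stands at 30.4%, above 25.7% for narrower and 23.4% for wide regions of higher fold, and it ends in 3 regions at 4.93, 11.8 and 18.97, while a few narrower regions reach up to 38.1. The estimate divides by the replicate 1 fold, which the rule also used.

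Local background moved with position at protein-coding gene ends in the wide and narrower regions of moderate fold. Where it was under 1.1, 7.69% of the wide regions were at protein-coding gene ends (16 of 208, 4.79% to 12.1%), beside 4.84% of narrower ones (4.55% to 5.14%), and these intervals overlap. From 1.1 to under 1.5 the shares were 14.6% (21 of 144, 9.74% to 21.3%) and 8.30% (7.82% to 8.81%), and at 1.5 or more they were 23.2% (13 of 56, 14.1% to 35.8%) and 10.1% (9.13% to 11.1%). Narrower regions weighted to the local background of the wide ones had 6.81% at such ends, where the wide regions had 12.3%. In wide regions of higher fold, the share at protein-coding gene ends was 4.51%, 5.53% and 8.33% (4 of 48) in the same 3 ranges. With genes of every kind, their shares fell instead, from 13.8% to 11.5% and 8.33%. The part of local background in the result was not tested.

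Many wide regions were listed with more than 1 fold in a replicate. The list repeated 91 of the 408 intervals (22.3%, 95% Wilson interval 18.5% to 26.6%) with different folds, beside 0.562% of narrower regions and 11.1% of wide regions of higher fold. In 61 of the 91 replicate 2 had several folds, in 70 replicate 3 did, and in 40 both did. Replicate 1 had 1 fold and 1 summit in all 379 repeated intervals on these chromosomes, and the headers do not say from which replicate the intervals were taken. Width was part of the rule, and a wider interval can hold more peaks. The fold ceiling also split the 2 wide classes by the highest listed fold. With the lowest listed fold kept instead, 478 regions rather than 408 would meet the rule. These shares are therefore a description. Summits sat a median of 11.8% of the width from the centre, beside 8.31% in narrower and 6.71% in wide regions of higher fold. In replicate 2 the highest fold of such a region had a median of 17.7 and the lowest 7.75, and in replicate 3 these were 21.2 and 7.92. The lowest was a median 0.545 of the highest in replicate 2 and 0.439 in replicate 3. Only regions whose listed folds differed in that replicate enter these ratios, so the folds were unequal by construction. Whether the folds of a region belong to separate peaks was not tested.

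**Figure D5:**
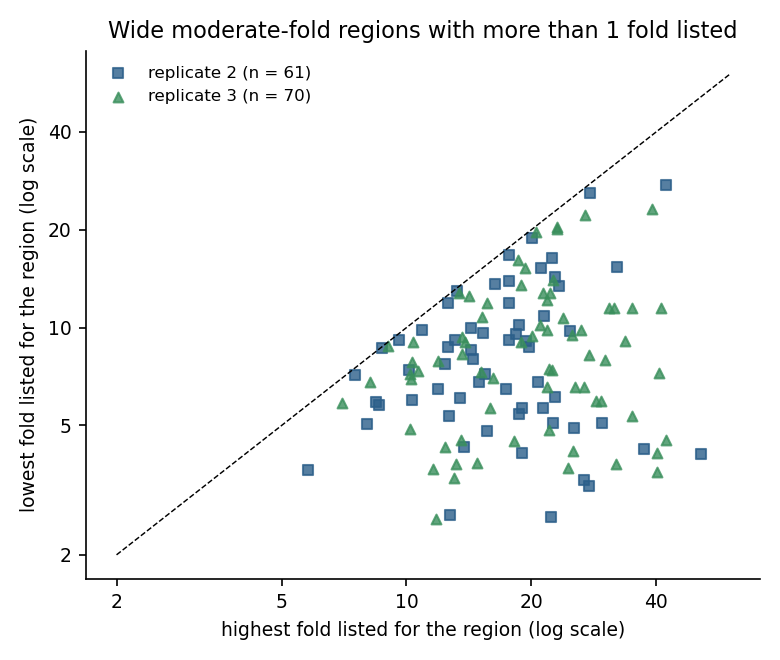
For wide moderate-fold regions listed with more than 1 fold in a replicate, the lowest listed fold (vertical) is plotted against the highest (horizontal), both over input on log scales, for replicate 2 (61 regions) and replicate 3 (70 regions). Only regions with differing folds are drawn, so points lie below the dashed line of equality. They lie near it where the listed folds were alike and far below it where these differed widely.

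The regions were spread over all 19 autosomes, from 12 on chromosome 12 to 34 on chromosome 7. They made up 1.09% of the 37274 regions without LacZ overlap, and by chromosome this share ran from 0.659% (chromosome 12, 0.377% to 1.15%) to 1.55% (chromosome 7, 1.11% to 2.16%). Only on chromosome 7 did the interval lie wholly above 1.09%, and for 1 of 19 chromosomes this is no more than a description. Another Gm4665 region lay within 10 kb of 138 of them (33.8%, 29.4% to 38.5%), beside 28.6% of narrower (28.1% to 29.0%) and 30.3% of wide regions of higher fold (26.8% to 33.9%).

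Few genes held several. The 408 regions touched 287 genes, 231 of them protein-coding, and 9 genes held 2 each. The 5 with the greatest summed width were Abcc8, the sulfonylurea receptor gene (mean folds 44.2 and 33.2), Grip1, a synaptic scaffold gene (30.7 and 32.3), Plpp4, a lipid phosphatase gene (43.6 and 25.1), Megf11 (9.9 and 25.7) and Nbea (6.6 and 32.5). At Nbea and Megf11 a weak region lay in the same gene as one nearer the median mean fold of 29.6.

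The 14 lists of germ cell, somatic and reference genes held few such regions. Of 543 genes found, 10 (1.84%) had one in the gene or its 2 kb flanks, against 1.25% of all protein-coding genes and 0.719% of all genes. The meiotic prophase list had 0 of 45, the acrosome and condensation list 0 of 35, the spermatid transcription list 0 of 17, the Leydig and interstitial list 0 of 23 and the ribosomal protein list 0 of 63. At shares near 1%, lists of this size would often hold 0, so nothing is read from these counts. Hox genes had 2 of 39, through 1 region of 1547 bp from 74680870 on chromosome 2 that covered the printed Hoxd11 window and reached the flank of Hoxd10, with folds of 22.4, 23.7 and 31.8 (mean 25.9 ± 5.11, SD, n = 3).

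Bik, a proapoptotic gene, was the single list member with such a region at a gene end (1 of 36 apoptosis genes), with folds of 38.2, 17.1 and 35.8 around its end on chromosome 15. Tex15, which is required for meiotic recombination and for silencing of transposons in male germ cells, held a region of 2125 bp from 33546508 on chromosome 8, with folds of 26.0, 17.6 and 29.6. It was the only member found in the spermatogonial (1 of 30) and piRNA lists (1 of 27), which share it. Replicate 2 was the lowest at both genes.

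The rest were single genes as well. Dnmt3a, the de novo DNA methyltransferase gene, had a region of 2091 bp in its flank with folds of 47.7, 37.1 and 29.7 (1 of 54 chromatin regulators). Dnah3, an axonemal dynein heavy chain gene, had 34.1, 28.9 and 37.0 (1 of 53 flagellum genes). Sgce, an imprinted sarcoglycan gene, had 40.2, 21.4 and 29.0 (1 of 46). Tjp1, the tight junction gene known from Sertoli cells, had 28.3, 18.2 and 22.4 (1 of 26). Of 53 very long adhesion and synaptic genes 2 had one, Nrxn3 with 48.8, 26.9 and 52.2 and Gpc6 with 37.2, 20.7 and 26.7, while all 53 held some Gm4665 region without LacZ overlap, as did 28% of all 46714 genes.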

How the data were processed

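Fold enrichment over input, a linear ratio, was used as the authors deposited it, with 1 column per replicate per the file headers. The deposited pileup is a signal, the read coverage at the summit. Peaks came from MACS2 per the file names; its version and settings, the aligner, the joining of replicates and the read totals were not given in the sources used here, so depth is unknown. Coordinates are mm10 (named in the submitters' processing notes), and gene positions came from a RefSeq table of GRCm38.p6. Of the autosomal genes, 328 that start below 3 Mb were taken to carry scaffold coordinates and left out.

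Intervals listed more than once became 1 region that kept the highest fold per replicate. Shares have 95% Wilson intervals and differences of shares Newcombe intervals (Python 3.11.15, statsmodels 0.14.6), which cover counting error only. Overlap functions were checked on simulated data. The 2 lists were normalized separately, yet the same fold ceiling was applied to both. Their shares at gene ends, the gaps between these shares and the spread between replicates were set side by side after that cut. These contrasts may therefore depend on the separate scales, which was not tested. Folds at gene ends and elsewhere were set side by side between the lists only as ratios within a library. The permutation test planned for those ratios is not reported, because the rule had capped the folds it used. Members, gene lists and the rule for named genes were chosen with earlier results of these data known: the 5 widest regions, the 12 widest at protein-coding gene ends, the 3 highest and 3 lowest mean folds, the 3 largest replicate ratios, the 5 genes holding most regions, up to 3 genes per list, and regions beside each threshold. Of 578 listed symbols, 543 were found. Local background, its cuts at 1.1, 1.2 and 1.5, and the alternative with intervals listed once were added after seeing the data. Inputs entered only as the denominator of the fold.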

Additional observations from a re-analysis of the deposited data

How the results depend on the processing

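The gene-end share minus that of narrower regions stayed above 0 in all 13 alternatives (2.53 to 7.36 points, against 5.11). The number of regions, 408, was 50 at 2000 bp, 1587 at 1200 bp, 210 with the mean fold under 30 and 152 with the lowest fold under 20, since the rule itself changed. Genes with a region at an end, 92, were 10, 295, 54 and 40 under these 4 settings, 49 with 1 kb windows, 196 with 5 kb windows and 61 with protein-coding genes alone. The share at gene ends, 18.1%, was 11.0%, 33.6% and 12.3% under these last 3. Regions overlapping a gene, 65.7%, were 76% at 2000 bp and 56.1% with protein-coding genes. The median of the mean fold, 29.6, was 23.6 with the mean and 20.8 with the lowest fold lowered. Replicate disagreement as highest over lowest fold was 1.60, a different unit from the SD of 24.0% of the mean. Keeping the lowest fold of repeated intervals in place of the highest gave 478 regions.

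Without each replicate in turn, 263 (without replicate 2) to 401 regions remained under the rule, with 17.5% to 18.6% at gene ends, 64.4% to 68.4% overlapping a gene, 62 to 91 genes, a median mean fold of 26.9 to 28.3 and an SD of 19.6% to 26.6%; widths could not be recomputed. The mean ratio of fold at gene ends to elsewhere, Gm4665 minus LacZ, was -0.0475. It ran from -0.106 to -0.0123 without a replicate number and was again -0.0475 with the replicate number as a block. With gene-end windows of 1 kb and 5 kb it was -0.0135 and -0.0204, and with protein-coding genes alone it was -0.000624. Its permutation test, planned for these folds, is void because the rule had capped them, and no p is given. Depth is unknown.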
